A study of Mus musculus with 12 samples.

Results

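The Dlk1-Dio3 miRNAs are the mature products of the imprinted domain on mouse chromosome 12 that lies between the protein-coding genes Dlk1 and Dio3. They were taken here as the named assays of the raw CT table, of any arm but without star forms, whose miRNA number belongs to the domain. This gave 16 assays out of 270 named and 593 in all. TaqMan rodent miRNA cards A and B were read for bone marrow cells of C57BL/6 mice sorted by FACS into LSK cells, promyelocytes, myelocytes and granulocytes, 4 successive stages of granulocyte maturation. LSK cells lack lineage markers, carry Sca1 and cKit, and include stem and progenitor cells. Whole cell, cytoplasmic and nuclear RNA of each stage gave 12 samples, 1 of each kind, from 100 ng of RNA per sample as labelled. No treatment or altered allele is given for any group, and neither the age of the mice nor the number pooled is stated in the sources used here. No group has a replicate, so no test between stages or fractions was made and differences are given as values without a replicate check.

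The domain is known for its imprinting: the long non-coding RNA Meg3, an RNA antisense to the paternally expressed gene Rtl1, and a long downstream series of miRNA hairpins are transcribed from the maternal chromosome. Hairpins opposite Rtl1 pair perfectly with its mRNA and can direct its cleavage. In adult mice the miRNAs of the domain are known mainly from brain, and in blood formation from long-term stem cells of the fetal liver.

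Of the 44 miRNA numbers that define the domain here, 14 had a named assay and the other 30 were not analysed here. Names rest on a match with lists that hold detected miRNAs, and 207 of the unnamed assays were undetermined in every cytoplasmic and nuclear sample, while 0 of the 270 named assays were. The 16 miRNAs were therefore chosen in part by detection, and they need not be all the miRNAs of the domain with a signal, since other unnamed assays were read in these samples. In RefSeq gene order, 6 of the 16, from 5 hairpin genes, lie inside the interval of Rtl1 and the other 10 run from Mir379 to Mir410.

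The mature sequences of the 8 miRNAs that carry most of the pattern described here are shown 5′ to 3′ with the seed, bases 2 to 8, in capitals. The first 3 come from the Rtl1 interval, and the other 5 from the stretch between Mir379 and Mir410.
miR-673-5p: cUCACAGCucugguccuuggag
miR-434-3p: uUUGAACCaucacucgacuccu
miR-136: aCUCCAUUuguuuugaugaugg
miR-379: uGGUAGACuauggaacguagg
miR-411: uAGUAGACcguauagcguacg
miR-494: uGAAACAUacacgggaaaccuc
miR-667: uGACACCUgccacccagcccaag
miR-376a: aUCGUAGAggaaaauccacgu
The sequences are those of RefSeq on the plus strand of GRCm38.p6. In the Rtl1 interval they lie at chr12:109572004-109572025 for miR-673-5p, chr12:109594565-109594586 for miR-434-3p and chr12:109595331-109595352 for miR-136. Further along, miR-379 lies at chr12:109709065-109709085, miR-411 at chr12:109710190-109710210 and miR-494 at chr12:109715367-109715388. miR-667 lies at chr12:109720061-109720083 and miR-376a at chr12:109723824-109723844. For a name without an arm, the sequence is that of the arm that held the plain name before arms were numbered, which was taken as the arm the assay reads and was not checked against the card's assay list. RefSeq held 15 of the 16 members, and miR-376c is named only. None of the 105 pairs among these 15 had the same seed. The seeds of miR-379 and miR-411, whose hairpins are the first members of the downstream stretch, differed at 1 of 7 bases.

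CT is the PCR cycle at which a well crosses its threshold. A lower CT stands for more template, 1 cycle stands for a 2-fold difference at full efficiency, and undetermined wells are listed at 40. The study treats results as reliable under a CT of 30. The 16 miRNAs gave 192 well readings, of which 116 were undetermined. Another 37 readings lay from 35 to under 40, 33 from 30 to under 35, and 6 were under 30. All 6 readings under 30 belonged to miR-494. The readings of the remaining 15 members all lay above that limit, and each assay was read in 1 well per sample, so that the error of a CT could not be estimated.

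**Figure D1:**
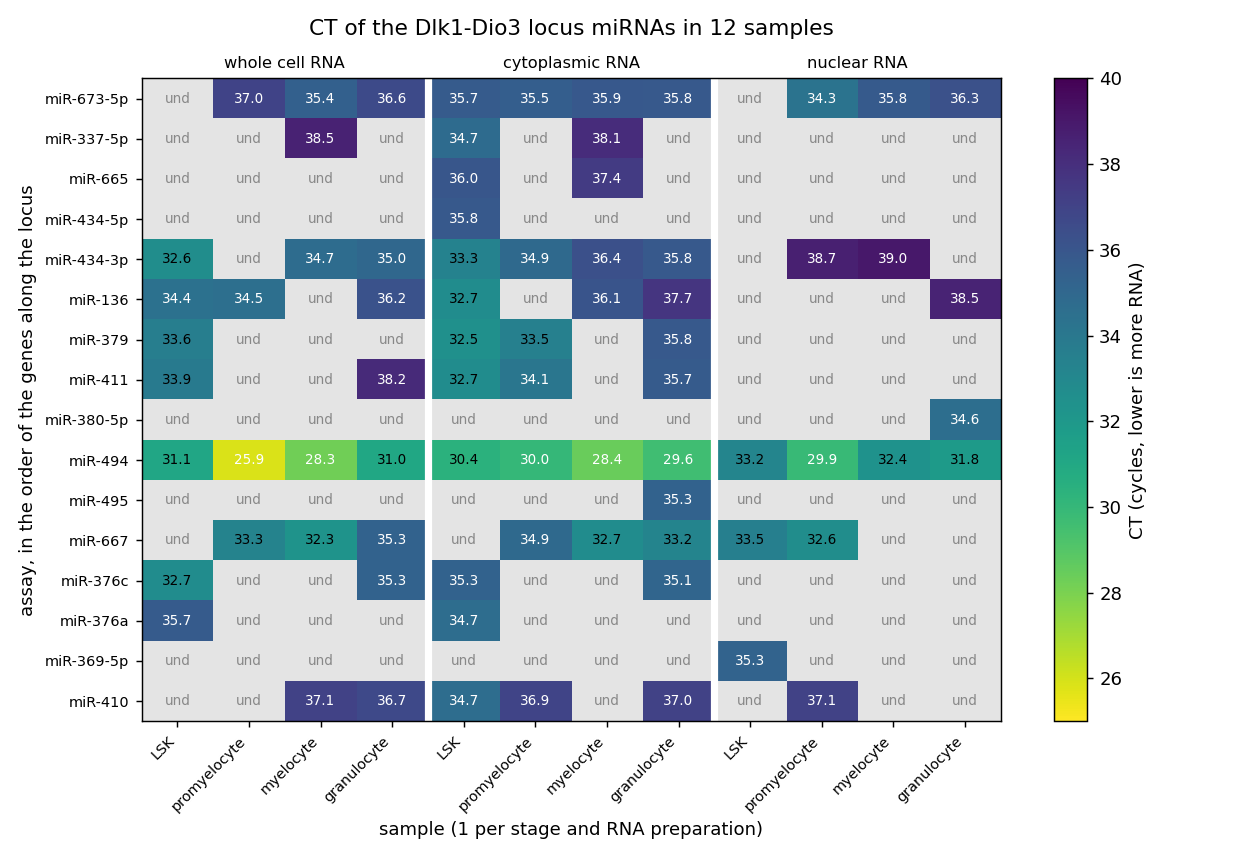
Each cell gives the CT of 1 miRNA (rows, in gene order along the domain) in 1 sample (columns, by RNA preparation and stage); colour runs from CT 25 to 40 and grey cells marked und were undetermined. Most of the 192 cells are undetermined or above 35, and the miR-494 row holds all 6 values under 30.

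Members of the domain were detected less often than other named assays in every preparation. Whole cell RNA of LSK held 7 of the 16, that of promyelocytes 4, that of myelocytes 6 and that of granulocytes 8, while 74.8 to 81.5% of the named assays were detected in the same samples. Cytoplasmic RNA held 12, 7, 7 and 10 from LSK to granulocytes, against 76.3 to 86.7% of the named assays. Nuclear RNA had 3, 5, 3 and 4 in the same order of stages, against 58.9 to 66.3% of the named assays. In all, 14 members were detected in cytoplasmic RNA of at least 1 stage, 11 in whole cell RNA and 8 in nuclear RNA. The LSK cytoplasm held more members than any other sample, and also the highest share of the named and of all assays. Set beside all 593 assays, named or not, the members' share was 75.0% against 49.6% in cytoplasmic LSK and 62.5% against 46.2% in cytoplasmic granulocytes, and 43.8% against 44.4 and 46.2% at the stages between. In whole cell RNA it was 43.8% against 44.9% in LSK and, with 8 of 16, above the 48.6% of all assays in granulocytes, and lower than that of all assays in the other 2 stages. In the nucleus it was lower at all 4 stages. All assays include many that were undetermined throughout, so they are no like-for-like background. Many member readings lay above 35. Under a CT of 35, whole cell LSK held 6 members and granulocytes 2, where all assays had 37.6% and 42.5%. In the cytoplasm LSK held 8 and granulocytes 2, beside 42.0% and 38.4%, so that the granulocyte counts rest mostly on readings from 35 to 40.

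**Figure D2:**
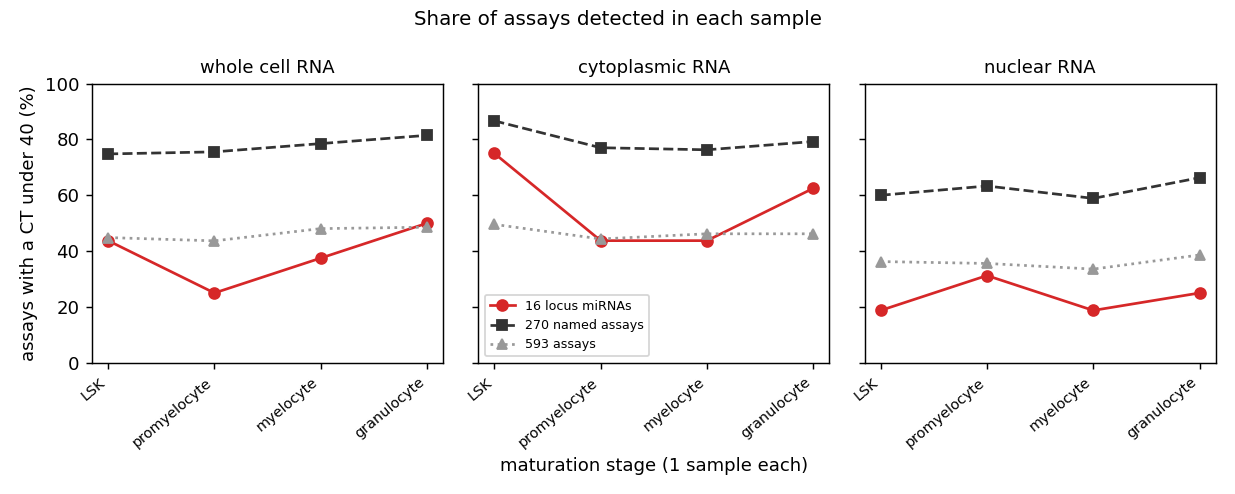
The share of assays with a CT under 40 is plotted against stage in each RNA preparation, for the 16 miRNAs of the domain (red circles), the 270 named assays (black squares) and all 593 assays (grey triangles), 1 sample per point. The domain's share lay below that of the named assays in all 12 samples, with its highest point, 12 of 16, in cytoplasmic LSK.

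A group of 6 members had its lowest whole cell CT in LSK: miR-434-3p and miR-136 from the Rtl1 interval, and miR-379, miR-411, miR-376c and miR-376a from the downstream stretch. These were 6 of the 11 members detected in whole cell RNA. Of all assays detected in whole cell RNA, 21.4% had their lowest CT in LSK, and 18.5% of the named ones did. The same 6 members were lowest in LSK without scaling and with scaling by the mean CT of all assays under 30, under which the share of all assays was 15.2% and 30.4%. In cytoplasmic RNA, 9 of 14 members were lowest in LSK. The share of all assays lowest there was 40.2%, above that of any other stage. For miR-434-5p and miR-376a, both among the 9, cytoplasmic LSK was the only cytoplasmic or nuclear sample with a reading. They were named through that reading, so their place in this count was fixed by the naming. Of the 6, all but miR-376c were also lowest in LSK in the cytoplasm. This holds for unscaled cytoplasmic CT. With scaling by the last 3 assays, 7 of the 14 members and 29.5% of all assays were lowest in LSK, against 38.2% of all assays in promyelocytes. Of the 6, miR-136, miR-376a and miR-376c were then lowest in LSK, and miR-434-3p, miR-379 and miR-411 in promyelocytes.

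miR-136 and miR-434-3p, which lie opposite Rtl1, were found at the later stages as well. Whole cell miR-434-3p read 32.6 in LSK, was undetermined in promyelocytes, and read 34.7 in myelocytes and 34.98 in granulocytes. Its cytoplasmic CT was 33.3, 34.9, 36.4 and 35.8 in the same order. LSK therefore had the lowest reading in both preparations, unscaled, and the undetermined whole cell well in promyelocytes stood against a measured one in the cytoplasm. On the log2 scale, the whole cell difference of miR-434-3p from LSK was -2.31 in myelocytes and -3.01 in granulocytes, after scaling by the mean of the last 3 assays of the table. In unscaled cytoplasmic RNA the differences were -3.01 in myelocytes and -2.46 in granulocytes. The other arm of that hairpin, miR-434-5p, was detected in 1 sample, cytoplasmic LSK, at 35.8.

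miR-136 read 34.4 in whole cell LSK, 34.5 in promyelocytes and 36.2 in granulocytes, with an undetermined well in myelocytes. In the cytoplasm it read 32.7, 40, 36.1 and 37.7. Again LSK was lowest in both, but the undetermined well was at a different stage in each preparation. The log2 difference of granulocytes from LSK was -2.54 in scaled whole cell RNA and -4.98 in unscaled cytoplasmic RNA. Scaled by the last 3 assays, the cytoplasmic difference was -6.39.

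miR-379 and miR-411, encoded next to each other, had much the same readings. Whole cell miR-379 read 33.6 in LSK and was undetermined at the other 3 stages. Whole cell miR-411 read 33.9 in LSK and 38.2 in granulocytes, with undetermined wells in promyelocytes and myelocytes. In the cytoplasm miR-379 read 32.5, 33.5, 40 and 35.8 from LSK to granulocytes, and miR-411 read 32.7, 34.1, 40 and 35.7. Their order over the stages was thus the same in the cytoplasm, with LSK lowest, promyelocytes next and myelocytes undetermined. In the cytoplasm the log2 difference of granulocytes from LSK was -3.31 for miR-379 and -2.997 for miR-411. For promyelocytes the cytoplasmic differences were -1.02 and -1.43, and they turned positive when the last 3 assays of the table were used for scaling, as did that of miR-434-3p at -1.53. Neither miRNA was detected in nuclear RNA of any stage.

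miR-376a and miR-376c belong to the miR-376 family, known for adenosine-to-inosine editing of its hairpins. miR-376a was found in LSK and at no other stage, at 35.7 in whole cell and 34.7 in cytoplasmic RNA. miR-376c read 32.7 in whole cell LSK and 35.3 in granulocytes, and in the cytoplasm 35.3 in LSK against 35.1 in granulocytes. Both were undetermined in promyelocytes and myelocytes in both preparations. The LSK and granulocyte levels of miR-376c thus differed by a log2 value of -3.25 in scaled whole cell RNA and by 0.15 in the unscaled cytoplasm. Scaled by the last 3 assays, the cytoplasmic difference was -1.26, so its sign depended on the scaling.

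**Figure D3:**
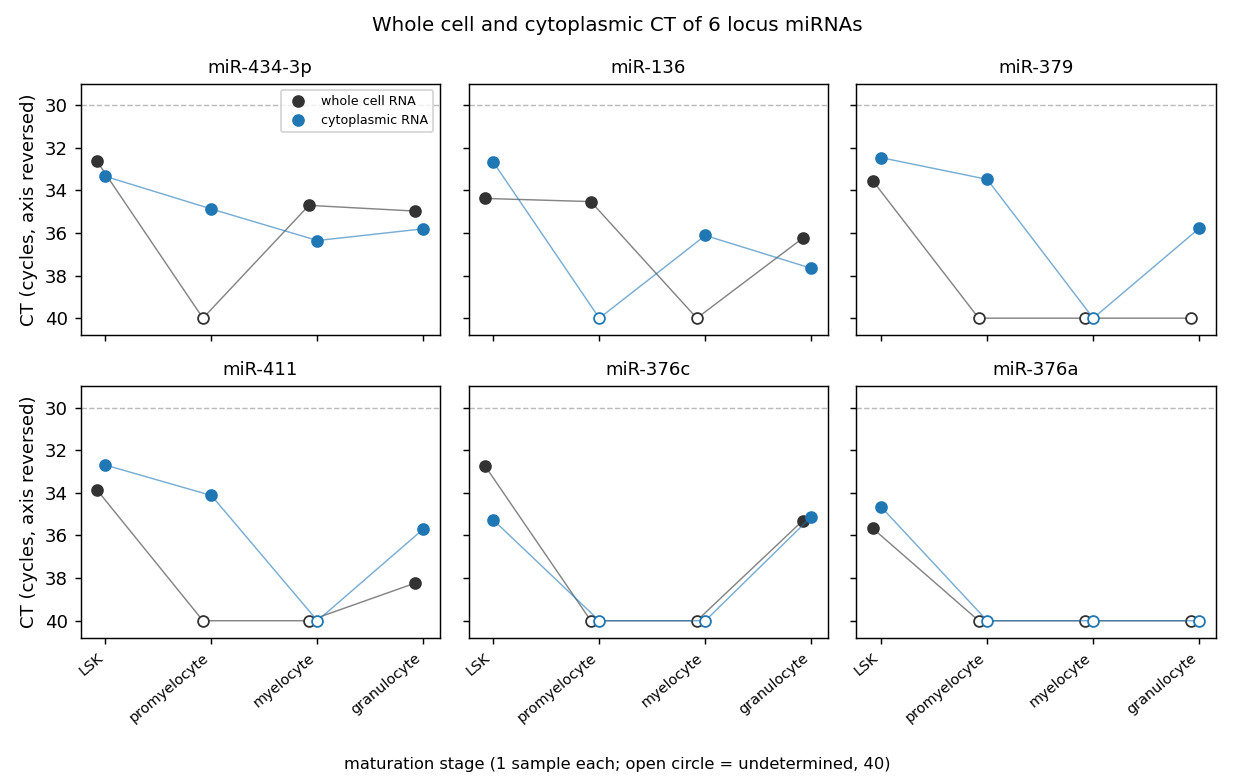
CT (reversed axis, so that more RNA is higher) is plotted against stage for the 6 miRNAs lowest in whole cell LSK, in whole cell (black) and cytoplasmic (blue) RNA, 1 sample per point; open circles are undetermined wells at 40 and the dashed line marks a CT of 30. LSK is the highest point of every whole cell line, between CT 32.6 and 35.7.

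Changes from LSK past 2-fold were counted over all members with a reading at either stage. In whole cell promyelocytes, 5 of 9 members were lower (28.5% of all assays were) and 3 were higher (33.1%). In myelocytes, 6 of 11 were lower (24.4%) and 5 were higher (46.6%). In granulocytes, 6 of 10 were lower (24.2%) and 3 were higher (44.3%). The members' median log2 change was -4.58, -2.31 and -2.78 at the 3 stages, against 0.17, 0.76 and 0.64 over all assays compared. The promyelocyte median rests on an undetermined well, that of miR-376a, and is a bound. With a CT at both stages, 0 of 2 members were lower in promyelocytes (18.6% of all assays were) and 1 was higher (29.5%). Of 2 in myelocytes, 1 was lower (17.0%) and 1 higher (41.7%). Of 5 in granulocytes, 4 were lower (19.9%) and 0 higher (39.4%). These 4 were miR-434-3p, miR-136, miR-411 and miR-376c, and all 3 higher calls in granulocytes rest on an undetermined LSK well. With every CT above 35 set to 35, 4 of 7 members were lower in promyelocytes (21.5% of all assays), 4 of 7 in myelocytes (19.6%) and 5 of 6 in granulocytes (20.1%). Higher under that setting were 2 of 7 (28.9%), 2 of 7 (38.5%) and 0 of 6 (38.8%).

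In cytoplasmic RNA, 10 of 13 members were lower in promyelocytes than in LSK (60.9% of all assays were) and 1 was higher (14.1%). In myelocytes, 10 of 13 were lower (40.5%) and 2 were higher (27.7%). In granulocytes, 9 of 14 were lower (38.1%) and 2 were higher (32.6%). Each of these lower counts includes miR-434-5p and miR-376a, whose direction was fixed by their naming through cytoplasmic LSK. Median log2 changes of the members were -2.24, -3.44 and -2.73, against -1.31, -0.53 and -0.13 over all assays. The promyelocyte counts lay nearest to those of all assays, and with scaling by the last 3 assays 6 of 13 were lower there, beside 25.3% of all assays, and 3 were higher, beside 36.9%. At the later stages that scaling gave 10 of 13 lower in myelocytes, beside 37.5%, and 11 of 14 in granulocytes, beside 59.5%. It gave 2 of 13 higher in myelocytes, beside 29.6%, and 2 of 14 in granulocytes, beside 15.5%. With a CT at both stages, 4 of 6 members were lower in promyelocytes (59.1% of all assays), 4 of 6 in myelocytes (33.3%) and 5 of 8 in granulocytes (30.4%). Higher under the same condition were 0 of 6 (8.44%), 1 of 6 (23.8%) and 0 of 8 (32.1%). With every CT above 35 set to 35, the lower counts came down to 4 of 9 at each stage, beside 56.3, 33.8 and 32.7% of all assays. The higher counts were then 0, 2 and 1 of 9, beside 8.21, 23.4 and 31.3%. The members' share of lower calls in cytoplasmic promyelocytes was then below that of all assays.

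Levels from whole cell and cytoplasmic RNA are separate samples of each stage and can be set beside each other. All 7 members detected in whole cell LSK were also detected in cytoplasmic LSK. For 6 of these 7 the whole cell CT was 32 or more, a range in which 94.9% of the named assays were found again in the cytoplasm. In the other direction, 6 of the 11 members with a cytoplasmic CT of 32 or more in LSK were found in whole cell RNA, beside 57.5% of the named assays. The same share at the later stages was 2 of 6 in promyelocytes beside 75.8%, 66.7% in myelocytes beside 80.3%, and 77.8% in granulocytes beside 90.1%. The members were detected in both preparations in 3 cases in promyelocytes, 5 in myelocytes and 8 in granulocytes. In RNA of whole cell populations, fewer cells with a miRNA and less of it per cell cannot be told apart.

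The other members were read near the detection limit. miR-337-5p read 34.7 in cytoplasmic LSK, 38.1 in cytoplasmic myelocytes and 38.5 in whole cell myelocytes. miR-665 read 36.0 in cytoplasmic LSK and 37.4 in cytoplasmic myelocytes. miR-410, the last of the 16 in gene order, read 34.7, 36.9, 40 and 37.0 in the cytoplasm, 37.1 in myelocytes and 36.7 in granulocytes in whole cell RNA, and 37.1 in nuclear promyelocytes. For these 3 the cytoplasm had its lowest reading in LSK while the whole cell LSK well was undetermined. The members detected in 1 sample each were miR-434-5p, miR-495 at 35.3 in cytoplasmic granulocytes, miR-380-5p at 34.6 in nuclear granulocytes, and miR-369-5p at 35.3 in nuclear LSK. miR-380-5p is known as a repressor of p53.

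miR-494 had a CT in all 12 samples, and in each of them the lowest of the 16, although CT of different assays also differ by assay efficiency. In whole cell RNA it read 31.1 in LSK, then 25.9 in promyelocytes, 28.3 in myelocytes and 31.0 in granulocytes. Its cytoplasmic CT was 30.4, 29.99, 28.4 and 29.6, and its nuclear CT was 33.2, 29.9, 32.4 and 31.8. Promyelocytes had the lowest reading in whole cell and nuclear RNA, and myelocytes in the cytoplasm. Against LSK, whole cell miR-494 was higher by a log2 difference of 4.99 in promyelocytes and 2.60 in myelocytes. The log2 difference of granulocytes from promyelocytes was -5.62. The granulocyte difference from LSK, -0.63, changed sign without scaling. In the cytoplasm the log2 differences from LSK were 0.40, 1.95 and 0.79 from promyelocytes to granulocytes. Scaled by the last 3 assays, as whole cell RNA was, they were 2.25, 2.13 and -0.63, with promyelocytes highest. In unscaled nuclear RNA the promyelocyte difference was 3.29.

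The whole cell and cytoplasmic readings of miR-494 in promyelocytes were 4.14 cycles apart. Among the 185 named assays detected in both of these samples the median difference was 0.56 cycles, with a 5th to 95th percentile range of -1.25 to 2.44. Counting miR-494 itself, 2 of the 185 had a difference as large, or 1.08%. In LSK, myelocytes and granulocytes its cytoplasmic minus whole cell CT was -0.70, 0.18 and -1.44 cycles. The granulocyte value lay just below the 5th percentile of the named assays, -1.38, on the opposite side from promyelocytes. The promyelocyte level of miR-494 thus read higher than that of LSK in all 3 preparations. The amount was smaller in the cytoplasm than in whole cell RNA under each scaling. In the unscaled cytoplasm it was 0.40 on the log2 scale, under the 2-fold limit. The nuclear CT of miR-494 in promyelocytes, 29.9, lay 4.02 cycles above the whole cell CT.

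miR-667 and miR-673-5p also read higher after LSK in whole cell RNA. miR-667 was undetermined in whole cell LSK and read 33.3 in promyelocytes, 32.3 in myelocytes and 35.3 in granulocytes. Its cytoplasmic CT was 40, 34.9, 32.7 and 33.2. Both preparations thus missed miR-667 in LSK and read it lowest in myelocytes, but nuclear LSK gave 33.5. The nuclear CT in promyelocytes was 32.6, and both later nuclear wells were undetermined. The log2 difference of granulocytes from myelocytes was -3.47 in scaled whole cell RNA and -0.53 in unscaled cytoplasmic RNA. Scaled by the last 3 assays, the cytoplasmic differences from the undetermined LSK well were 7.49 in myelocytes and 5.37 in granulocytes. The cytoplasmic fall between these stages was thus larger under that scaling.

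miR-673-5p is the member nearest to Dlk1. It was undetermined in whole cell LSK, and read 37.0, 35.4 and 36.6 at the later stages. The cytoplasmic CT, 35.7 in LSK and 35.5, 35.9 and 35.8 at the later stages, spanned less than 1 cycle. Scaled by the last 3 assays, the cytoplasmic log2 difference of promyelocytes from LSK was 1.99 in place of 0.14, and that of granulocytes -1.55 in place of -0.14. Whether miR-673-5p differed between LSK and promyelocytes in the cytoplasm thus depended on the scaling.

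**Figure D4:**
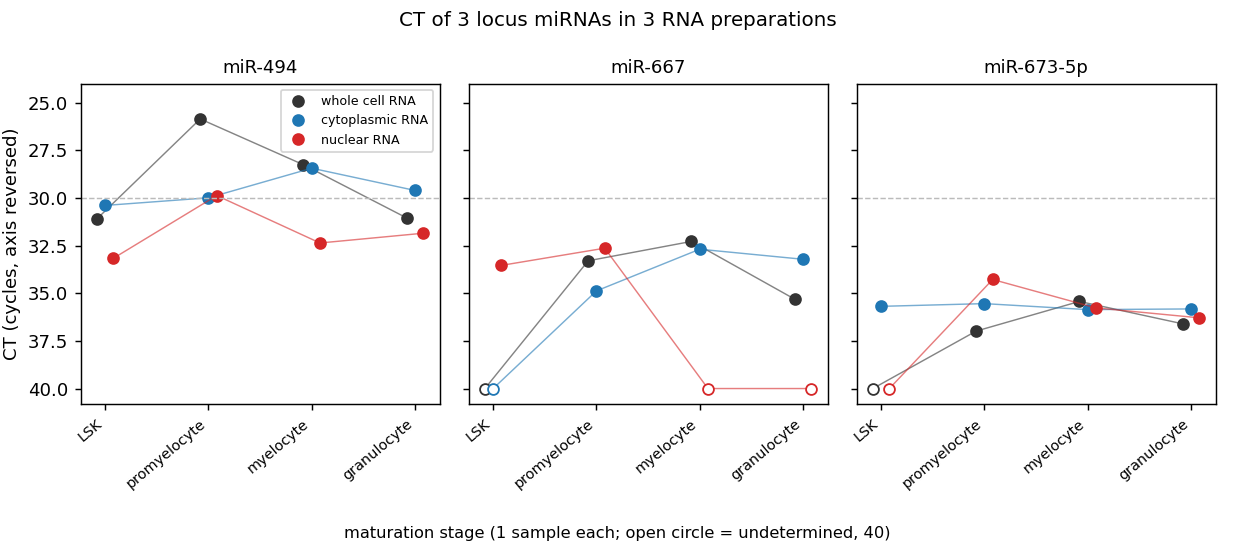
CT (reversed axis) is plotted against stage for miR-494, miR-667 and miR-673-5p in whole cell (black), cytoplasmic (blue) and nuclear (red) RNA, 1 sample per point; open circles are undetermined wells at 40 and the dashed line marks a CT of 30. The whole cell promyelocyte point of miR-494, at 25.9, lies above the cytoplasmic and nuclear points, while miR-673-5p stays between 34.3 and 37.0 wherever it was detected.

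Nuclear and cytoplasmic CT were compared as deposited. Whether they stand for equal RNA or equal cells is not settled: the labels name a fixed amount of RNA, and the study speaks of cell equivalent volumes. A nuclear CT lower than the cytoplasmic one was found for 2 of 14 members in LSK, miR-667 and miR-369-5p, where 13.5% of all assays had it. In promyelocytes it was found for 3 of 7, miR-673-5p, miR-494 and miR-667, beside 21.0% of all assays. In myelocytes it was miR-673-5p, 1 of 7, beside 11.3%, and in granulocytes miR-380-5p, 1 of 11, beside 15.9%. Both LSK cases and that of miR-380-5p rest on an undetermined cytoplasmic well. The nuclear:cytoplasmic ratio was formed as 2 raised to the cytoplasmic minus nuclear CT, divided by 3, so that a nuclear CT slightly below the cytoplasmic one still gives a ratio under 1. For miR-494 it was 0.0489 in LSK, 0.361 at the promyelocyte stage, and then 0.0220 in myelocytes and 0.0703 in granulocytes. The medians of the named assays detected in both fractions were 0.0206, 0.0519, 0.0257 and 0.0611. The promyelocyte ratio of miR-494 was thus the one farthest above its median. It rests on cytoplasmic and nuclear CT of 29.99 and 29.87.

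The other ratios rest on CT above 30. In promyelocytes the ratio was 1.58 for miR-667, 0.802 for miR-673-5p, 0.299 for miR-410 and 0.0238 for miR-434-3p. miR-673-5p had a ratio of 0.355 in myelocytes and 0.241 in granulocytes, above the medians of both stages. miR-434-3p had 0.0527 in myelocytes, and miR-136 had 0.185 in granulocytes.

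The star forms of the domain, which the choice of members left out, were detected in 2 to 4 of the 12 samples each. miR-485* read 33.2 in whole cell LSK and 34.95 in granulocytes, and 36.1 and 34.7 in the cytoplasm of the same stages. Like miR-376c, it was undetermined in promyelocytes and myelocytes in both preparations. miR-376b* read 33.4 in cytoplasmic LSK and 35.9 in whole cell myelocytes. miR-299* read 35.1 in nuclear LSK, 36.7 in nuclear promyelocytes and 39.8 in whole cell promyelocytes.

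Markers could be set against the labels for LSK and for myeloid cells in general, but none of those listed separates the 3 later stages from each other. All 5 stem and progenitor markers had their lowest whole cell CT in LSK, among them miR-126-3p at 24.3 in LSK and 27.1, 27.6 and 27.0 later, and miR-196b at 25.8, 29.3, 31.3 and 33.2. The myeloid miR-223 went from 23.98 in LSK to 19.5, 17.3 and 16.4. The other 3 stem and progenitor markers, miR-125a-5p, miR-125b-5p and miR-99b, which were also listed as miRNAs of the stem cell families, read 28.8, 28.9 and 31.5 in whole cell LSK. These were lower CT than those of any LSK-lowest member of the domain. A second clustered group, the Sfmbt2 intron miRNAs of the miR-297, miR-466, miR-467 and miR-669 families, had 8, 8, 7 and 10 of 12 assays detected in whole cell RNA from LSK to granulocytes, and 10, 9, 6 and 10 in the cytoplasm.

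Markers of other cells were also read. Of 6 named stromal, muscle and endothelial markers, 2, 3, 5 and 4 were detected in whole cell RNA and 5, 5, 5 and 4 in the cytoplasm from LSK to granulocytes. In whole cell LSK these were miR-199a-3p at 33.7 and miR-206 at 33.9, while miR-143, miR-145, miR-1 and miR-133b were at 40. Of 4 neural markers, 1, 1, 1 and 2 were detected in whole cell RNA and 2, 0, 0 and 1 in the cytoplasm. In whole cell LSK this was miR-218 at 33.0, with miR-9, miR-124 and miR-129-3p at 40. miR-218 also read 33.0 in cytoplasmic LSK and was undetermined at the later stages in both preparations, as miR-376a was. Unlike miR-376a, miR-218 was also read in nuclear RNA, at 34.4 in myelocytes and 35.9 in granulocytes. miR-124 read 30.01 in whole cell promyelocytes, 32.3 in nuclear promyelocytes and 32.96 in nuclear granulocytes. miR-129-3p was read in granulocytes only, at 31.2, 32.3 and 31.9 in whole cell, cytoplasmic and nuclear RNA. miR-9 read 35.2 in cytoplasmic LSK, 37.7 in whole cell myelocytes and 35.1 in whole cell granulocytes. The lymphoid markers miR-150 and miR-181a were detected in all 12 samples. miR-150 read 25.1, 28.8, 25.6 and 25.8 in whole cell RNA and 24.1, 29.6, 25.3 and 26.5 in the cytoplasm, lowest in LSK and highest in promyelocytes in both. Whole cell miR-181a spanned 29.8 in LSK to 28.97 in promyelocytes, and in the cytoplasm it read 27.5 in LSK and 29.5 to 29.8 later. Both lymphoid markers were thus lowest in LSK in the unscaled cytoplasm. Of 3 erythroid markers only 1, miR-486, was named. It was undetermined in LSK and promyelocytes of every preparation. Its CT was 31.5 in whole cell myelocytes, 31.7 in whole cell granulocytes and 33.6 in cytoplasmic granulocytes. The part of such cells in the levels of the domain was not tested.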

How the data were processed

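The 12 samples hold raw CT values; the authors sorted the cells, fractionated them with the PARIS kit, extracted RNA with Trizol, ran TaqMan rodent cards on an ABI 7900HT instrument and deposited the CT without normalization, with undetermined wells at 40. The assays are numbered. A name was given where 1 assay equalled an entry of the study's miRNA lists in every printed cytoplasmic and nuclear CT, within 0.0005 cycles. At least 6 such values had to be printed. Otherwise a name was given where whole cell differences matched within 0.002. This named 247 and 23 assays, and all 16 members came from the first step. The members and lists were chosen with earlier results of these data known; all members are named in the text. Whole cell changes were scaled by the average of the table's last 3 assays, which shifted promyelocytes, myelocytes and granulocytes by -0.25, -0.24 and -0.68 cycles from LSK; cytoplasmic and nuclear values were not scaled. A change was called past 2-fold. Depth has no counterpart in CT; the single well per assay limits precision. Mature sequences and gene order are from RefSeq, GRCm38.p6. The naming was tested on simulated data. The calls were tested there only with starting CT under 30 and without undetermined wells. That test therefore does not cover most member readings or calls that rest on an undetermined well. Alternatives are given in the closing section. Python 3.11.15, numpy 2.4.6, pandas 2.3.3 and matplotlib 3.10.9 were used. The mRNA arrays and cell line experiments of the study were not analysed here.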

Additional observations from a re-analysis of the deposited data

How the results depend on the processing

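Of the alternative values computed for 30 reported counts and ratios, 113 lay within 1.5 times the value given and 23 did not; the alternatives for counts of members lowest in LSK, and those with miR-381, were chosen after seeing the data. Matching names within 0.005 cycles left the 12 detection counts as they were. With detection set at a CT of 35, the whole cell counts fell to 3 in myelocytes and 2 in granulocytes, the cytoplasmic ones to 2 in both, and the nuclear ones to 3, 1 and 2 in promyelocytes, myelocytes and granulocytes. With all CT above 35 set to 35, whole cell members higher than in LSK numbered 2 in myelocytes and 0 in granulocytes. The same setting left 4 cytoplasmic members lower in each of the 3 stages, 0 higher in promyelocytes and 1 in granulocytes. Cytoplasmic members lower in promyelocytes were 6 with scaling by the last 3 assays, and those higher were 3 with either scaling and 2 with miR-381 added; at a fold limit of 4, 1 was higher in myelocytes. Without the divisor the miR-494 ratios were 0.147, 1.08, 0.0659 and 0.211 from LSK to granulocytes, and at 1.9-fold per cycle 0.0563, 0.359, 0.0269 and 0.0789. The cytoplasmic differences from LSK that changed sign with scaling were those of miR-434-3p, miR-379 and miR-411 in promyelocytes, miR-673-5p in myelocytes, and miR-494 and miR-376c in granulocytes; in whole cell RNA it was miR-494 in granulocytes. No group has a second sample, so no replicate could be left out; fractions were set beside each other stage by stage, and a paired test over the 4 stages was not made. Members above a CT of 35 are at the detection limit.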

Other observations

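A further entry of the domain, miR-381, matched an assay in 7 of its 8 printed cytoplasmic and nuclear CT and differed from that assay in the eighth, cytoplasmic granulocytes, so it was not counted as a member. That assay read 34.6 in cytoplasmic promyelocytes and 39.4 in cytoplasmic granulocytes and was undetermined in the other 10 samples.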
